A study of Rattus norvegicus with 15 samples.

Results

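The genes described here are 10 components of TGF-beta and activin signalling in rat bone marrow mesenchymal stem cells, the stromal cells of marrow that grow in culture and can form bone, cartilage and fat. They comprise the ligands Tgfb1, Tgfb2, Tgfb3 and Inhba, the receptors Tgfbr1 and Tgfbr2, the follistatin family members Fst, Fstl1 and Fstl3, and the intracellular inhibitor Smad7. They were chosen by gene name with earlier results of these data known, as were the pathway lists below. Counts set beside shares of all genes are therefore descriptions and no test of the set. All 10 were found among the 12169 genes of the expression table and passed the filter on low values. RNA sequencing measured transcripts of passage 3 to 5 cells grown from Sprague Dawley femoral marrow, in 5 groups of 3 libraries. The BMSC group was neither infected nor deprived. The shLuci and shRac1 groups carried a lentivirus with a hairpin against luciferase, the control, or against the small GTPase Rac1, and were grown in high-glucose medium as the BMSC group was. The shLuci+OGD and shRac1+OGD groups carried the same viruses and underwent oxygen and glucose deprivation (OGD) for 12 h at 1% O2 without sugar, then 24 h of reoxygenation. No uninfected cells underwent OGD. Levels are FPKM, fragments scaled to transcript length and to the reads of the library, and changes are differences of log2(FPKM + 0.5).

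TGF-beta ligands are secreted in a latent complex and, once released, bring together a type II and a type I receptor that phosphorylates SMAD proteins, which then enter the nucleus and regulate genes. Activins, dimers of inhibin beta chains, use related receptors, and follistatin and follistatin-like 3 bind activins outside the cell and keep them from their receptors. SMAD7 is itself induced by the pathway and blocks the type I receptor. In marrow stromal cells these ligands are known for their effects on matrix production, growth and the choice between bone, cartilage and fat.

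The promoters of Tgfb2, Tgfb3 and Fstl3 are shown because these 3 genes had the widest ranges of group means, 2.08, 1.75 and 3.20 on the log2 scale. RefSeq windows of 300 bases, 250 before and 50 after the annotated start, were matched for 9 of the 10 genes on build GRCr8. Capitals mark the only match in these 3 windows to a short SMAD motif, CAGACA, searched on both strands.
Tgfb2 promoter, chr13:100792636-100792935, minus strand: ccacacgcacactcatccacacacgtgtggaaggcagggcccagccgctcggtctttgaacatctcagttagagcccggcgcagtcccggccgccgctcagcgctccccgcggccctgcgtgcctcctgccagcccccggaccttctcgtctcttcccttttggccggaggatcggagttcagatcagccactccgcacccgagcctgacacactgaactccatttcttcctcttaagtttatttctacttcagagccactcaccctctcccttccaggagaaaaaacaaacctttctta
Tgfb3 promoter, chr6:111456897-111457196, minus strand: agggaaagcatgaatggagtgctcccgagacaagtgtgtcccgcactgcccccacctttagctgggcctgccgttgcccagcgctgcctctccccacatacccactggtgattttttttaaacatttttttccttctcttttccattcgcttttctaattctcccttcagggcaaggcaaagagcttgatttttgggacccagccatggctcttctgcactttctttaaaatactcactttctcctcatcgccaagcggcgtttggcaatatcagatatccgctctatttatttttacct
Fstl3 promoter, chr7:10579795-10580094, minus strand: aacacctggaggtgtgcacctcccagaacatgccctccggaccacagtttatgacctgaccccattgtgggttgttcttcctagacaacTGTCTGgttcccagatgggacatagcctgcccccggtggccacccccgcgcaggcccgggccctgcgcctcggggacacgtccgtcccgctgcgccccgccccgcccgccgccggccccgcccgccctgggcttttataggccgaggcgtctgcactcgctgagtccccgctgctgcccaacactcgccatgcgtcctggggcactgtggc
The Fstl3 window was 69.0% G or C with 24 CpG pairs, the Tgfb2 window 59.0% with 19, and the Tgfb3 window 47.7% with 9, against medians of 52.3% and 7 over 27457 rat promoters. CAGACA or its complement occurred in 2 of the 9 windows, at -161 from the Fstl3 start and at -2 from the Inhba start, and in 20.8% of all promoters. The longer SMAD palindrome GTCTAGAC, the AP-1 motif TGANTCA, the CRE motif TGACGTCA and the TEAD motif GGAATG had no match in the 9 windows and occurred in 0.215%, 7.33%, 1.91% and 13.9% of all promoters. These matches describe letters in a window, and the starts used for Tgfb2, Tgfb3 and Inhba lie 542, 700 and 6434 bases inside the outermost annotated gene limit.

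Some facts of the whole series bear on the values. Group names follow the sample titles. Rac1 itself lay between 139.3 and 167.6 FPKM in every library and did not differ between the libraries labelled shRac1 and shLuci (log2 change -0.09 ± 0.08 SE, limma adjusted p = 0.577), so the direction of every hairpin comparison rests on the titles alone. The lists of changed genes that the authors deposited pair shLuci+OGD with shRac1 and shRac1+OGD with BMSC, which is another pairing than the titles give. Each OGD group is therefore set against all 3 undeprived groups below. BMSC replicate 2 stood apart, with summed FPKM of 628685 against 463945 to 516495 elsewhere and 144 genes at 0 against 42 to 78, and leaving it out added 23 calls to the 120 values of the 10 genes in 12 comparisons, ended 0 and reversed 0. Calls over all genes rose too, from 7.43% to 31.0% across the 12 comparisons with all libraries to 21.1% to 50.1% without it. Mesenchymal markers (Thy1, Itgb1, Cd44 and Pdgfrb, 4 of 7 listed) summed to 818 to 1201 FPKM in BMSC, 1322 to 1353 in shLuci, 1215 to 1227 in shRac1, 1024 to 1065 in shLuci+OGD and 1172 to 1201 in shRac1+OGD, and no haematopoietic, endothelial or erythroid marker of the 11 listed was among the table's genes. The table also lacks the mesenchymal markers Nt5e, Eng and Vcam1, so absence from it does not show that a transcript was absent from the cells. Of 4 macrophage markers the table held Cd14 and Cd68, which summed to 12.4 to 13.5 FPKM in shLuci+OGD and 7.08 to 10.1 FPKM in the other libraries. Fabp4, the only listed adipocyte marker in the table, reached 0.971 to 2.21 FPKM in shLuci+OGD and at most 0.764 FPKM elsewhere. The macrophage and adipocyte values were highest in the group with the lowest Tgfb2 and Tgfb3, whose mesenchymal sum was below those of the other infected groups, and their part in the results was not tested.

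Tgfb2 and Tgfb3 transcripts were lowest after OGD in the control-hairpin cells, while Tgfb1 was not lowered there. Tgfb2, a TGF-beta isoform prominent in mesenchymal tissues and development, read 152.0, 138.7 and 149.0 FPKM in BMSC and 161.5, 166.3 and 155.9 FPKM in shLuci. It read 91.7, 88.2 and 83.4 FPKM in shRac1, 35.9, 37.3 and 39.8 FPKM in shLuci+OGD, and 97.8, 95.6 and 94.8 FPKM in shRac1+OGD. The 3 shLuci+OGD libraries lay below every other library, the shRac1 and shRac1+OGD libraries formed a middle level, and BMSC and shLuci were highest. In shLuci+OGD Tgfb2 fell against BMSC (log2 change -1.95 ± 0.07, limma adjusted p = 1.55e-09), against shLuci (-2.08 ± 0.07, limma adjusted p = 2.88e-10) and against shRac1 (-1.21 ± 0.07, limma adjusted p = 2.01e-07). In shRac1+OGD it fell against BMSC and shLuci (-0.61 and -0.74, limma adjusted p = 0.000106 and 8.95e-06), whereas the change against shRac1 was 0.13 ± 0.07 and did not pass the test (limma adjusted p = 0.266). Of the 10 pairs of groups 8 differed, and the exceptions were shLuci with BMSC and shRac1+OGD with shRac1. In bulk libraries such as these, fewer cells of a type and less RNA per cell cannot be told apart.

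Tgfb3, the isoform used to drive cartilage formation in marrow stromal cultures, was the most abundant of the 3 TGF-beta isoforms. It read 569.6, 551.8 and 627.5 FPKM in BMSC, 524.5, 520.3 and 499.5 FPKM in shLuci and 446.4, 427.9 and 417.4 FPKM in shRac1. After OGD it read 166.7, 178.0 and 172.4 FPKM in shLuci+OGD and 387.4, 383.6 and 399.0 FPKM in shRac1+OGD. Every OGD library was below every undeprived library, and the shLuci+OGD libraries were far below the rest. The fall in shLuci+OGD was -1.75 ± 0.07 against BMSC, -1.58 ± 0.07 against shLuci and -1.32 ± 0.07 against shRac1 (limma adjusted p = 3.96e-09, 7.1e-09 and 1.75e-07). The fall in shRac1+OGD was smaller against BMSC and shLuci (-0.58 and -0.40, limma adjusted p = 0.000193 and 0.00207), and against shRac1 the change was -0.14 ± 0.07 (limma adjusted p = 0.251). The fit to the BMSC and shRac1+OGD libraries alone ended that group's calls against BMSC for Tgfb2 and Tgfb3 (limma adjusted p = 0.0621 and 0.106), and rescaling to a common total ended the Tgfb3 call against shLuci (limma adjusted p = 0.071).

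Tgfb1, the isoform best known for fibrosis and immune restraint, followed another order. It read 79.7, 93.6 and 79.0 FPKM in BMSC, 124.4, 117.8 and 103.4 FPKM in shLuci and 71.7, 72.9 and 66.9 FPKM in shRac1. After OGD it read 96.8, 111.9 and 103.3 FPKM in shLuci+OGD and 96.2, 87.7 and 93.8 FPKM in shRac1+OGD. The shRac1 libraries were lowest, and shLuci and shLuci+OGD overlapped. Against shLuci the shLuci+OGD libraries changed by -0.15 ± 0.09 (limma adjusted p = 0.323), and against shRac1 they were higher by 0.56 ± 0.09 (limma adjusted p = 0.00133). The rise in shLuci+OGD against BMSC (0.31 ± 0.09, limma adjusted p = 0.0246; 0.39 without BMSC replicate 2) was lost under median-of-ratios scaling, in a fit to those groups alone, and without BMSC replicate 1 or 3 or shLuci+OGD replicate 2 or 3 (limma adjusted p = 0.555, 0.201 and 0.0555 to 0.0956). Tgfb1 was also higher in shRac1+OGD than in shRac1 (0.39 ± 0.09, limma adjusted p = 0.0146). That call was lost under median-of-ratios scaling (limma adjusted p = 0.0961) and without shRac1 replicate 3 or shRac1+OGD replicate 1 or 3 (limma adjusted p = 0.0686, 0.0676 and 0.0551).

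**Figure D1:**
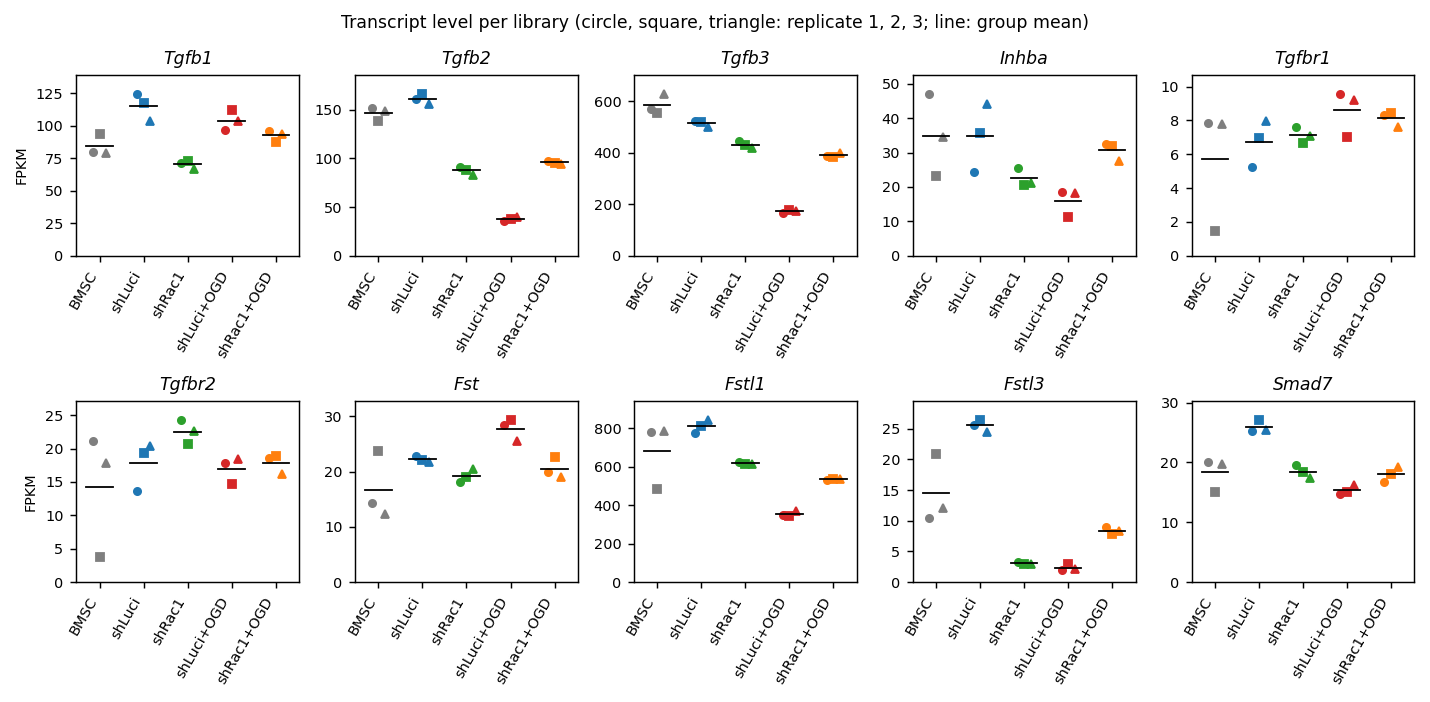
Level of each gene in FPKM (vertical axis, linear and starting at 0) in the 15 libraries by group, with circle, square and triangle for replicates 1, 2 and 3 and a line for the group mean. Tgfb2, Tgfb3 and Fstl1 are lowest in shLuci+OGD, Fstl3 is low in shRac1 and shLuci+OGD, and BMSC replicate 2 (grey square) is low for both receptors.

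The make-up of the TGF-beta ligand transcripts shifted with the level. Summed over the 3 isoforms, FPKM were 784 to 856 in BMSC, 759 to 810 in shLuci, 568 to 610 in shRac1, 567 to 588 in shRac1+OGD and 299 to 327 in shLuci+OGD. Tgfb1 made up 9.23% to 15.4% of the sum in the undeprived libraries, 15.5% to 16.5% in shRac1+OGD and 32.3% to 34.2% in shLuci+OGD. Tgfb2 made up 11.4% to 12.6% in shLuci+OGD and 14.7% to 20.7% elsewhere. Tgfb3 remained the larger share in all libraries, with 54.4% to 55.7% in shLuci+OGD and at least 64.7% elsewhere. These shares are given as a description and were not tested.

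**Figure D2:**
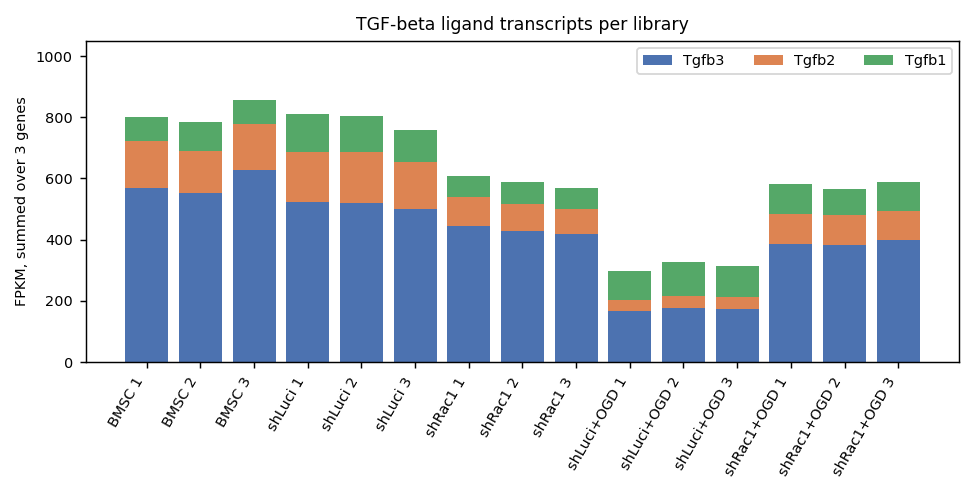
FPKM of Tgfb3, Tgfb2 and Tgfb1 stacked per library (vertical axis from 0). The 3 shLuci+OGD libraries have the lowest sums, 299 to 327 FPKM. Their Tgfb1 segments are 96.8 to 111.9 FPKM, within the 66.9 to 124.4 FPKM of the other libraries.

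Inhba encodes the inhibin beta A chain that forms activin A. It read 47.0, 23.2 and 34.4 FPKM in BMSC, 24.4, 35.7 and 44.1 FPKM in shLuci, 25.6, 20.7 and 21.2 FPKM in shRac1, 18.5, 11.4 and 18.3 FPKM in shLuci+OGD and 32.4, 31.9 and 27.6 FPKM in shRac1+OGD. The shLuci+OGD libraries were again the lowest, and the spread within BMSC and shLuci was wide. Inhba fell in shLuci+OGD against BMSC (-1.07 ± 0.27, limma adjusted p = 0.00894) and against shLuci (-1.08 ± 0.27, limma adjusted p = 0.0103). The latter call was lost without shLuci replicate 3 or shLuci+OGD replicate 2 (limma adjusted p = 0.0515 and 0.051), and the former in a fit to its own groups alone (limma adjusted p = 0.105). No other pair of groups passed the test for Inhba, and in shRac1+OGD against shLuci+OGD the change was 0.94 ± 0.27 (limma adjusted p = 0.052; 0.00557 without BMSC replicate 2).

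Neither receptor was called between any pair of groups with all 15 libraries. Standard errors were wide, 0.42 for Tgfbr1 and 0.45 for Tgfbr2 in each pair, so a moderate difference could be missed. For Tgfbr2 in shRac1 against shLuci the change was 0.35 (limma adjusted p = 0.744, and 0.057 without BMSC replicate 2). Tgfbr2, the type II receptor that binds the ligand, ranged from 13.7 to 24.2 FPKM in 14 libraries and was 3.73 FPKM in BMSC replicate 2. Tgfbr1, the type I receptor kinase, ranged from 5.25 to 9.56 FPKM in the same 14 libraries and was 1.495 FPKM in BMSC replicate 2. In OGD against undeprived libraries Tgfbr1 changed by 0.43 ± 0.27 and Tgfbr2 by 0.07 ± 0.29 (limma adjusted p = 0.275 and 0.886). Without BMSC replicate 2 these changes were 0.20 and -0.18 (limma adjusted p = 0.0765 and 0.112), and Tgfbr2 was lower in shLuci+OGD than in shRac1 (-0.40, limma adjusted p = 0.031). Across libraries the correlation of the receptors with each other was r = 0.917 over 15 libraries and r = 0.322 over the 14 others, so it rested on that library.

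Among the follistatin family, Fstl3 had the widest range of all 10 genes, with a ratio of 10.8 between its highest and lowest group means. Fstl3 is a secreted binder of activins and myostatin. It read 10.5, 20.9 and 12.1 FPKM in BMSC and 25.7, 26.4 and 24.5 FPKM in shLuci. It read 3.23, 3.02 and 2.99 FPKM in shRac1, 1.99, 2.91 and 2.18 FPKM in shLuci+OGD and 8.90, 7.81 and 8.32 FPKM in shRac1+OGD. No library of shRac1 or shLuci+OGD reached the level of any library of the other groups. Of the 10 pairs of groups 9 differed, and the exception was shLuci+OGD with shRac1 (-0.34 ± 0.20, limma adjusted p = 0.321; 0.0209 without BMSC replicate 2). In shLuci+OGD Fstl3 fell by 3.20 ± 0.20 against shLuci and by 2.34 ± 0.20 against BMSC (limma adjusted p = 1.34e-07 and 2.95e-06). In shRac1+OGD it fell by 1.56 ± 0.20 against shLuci (limma adjusted p = 0.000185) and rose by 1.30 ± 0.20 against shRac1 (limma adjusted p = 0.000758). Its direction after OGD in the libraries labelled shRac1+OGD thus depended on the group they were set against. Against BMSC the change was -0.70 ± 0.20 (limma adjusted p = 0.0344), which became -0.42 without BMSC replicate 2. That call was lost without shLuci or shRac1 replicate 2 or without any library of shRac1+OGD (limma adjusted p = 0.0507 to 0.117).

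Fstl1, a secreted glycoprotein abundant in mesenchymal cells that, unlike follistatin, is not mainly an activin trap, was the most abundant of the 10 transcripts. It read 780.9, 482.9 and 783.9 FPKM in BMSC, 776.2, 812.8 and 840.9 FPKM in shLuci and 625.9, 611.8 and 613.5 FPKM in shRac1. After OGD it read 346.6, 344.4 and 367.1 FPKM in shLuci+OGD and 530.1, 536.3 and 535.6 FPKM in shRac1+OGD. The shLuci+OGD libraries were below all others, as for Tgfb2 and Tgfb3. Their fall was -0.92 ± 0.15 against BMSC, -1.20 ± 0.15 against shLuci and -0.81 ± 0.15 against shRac1 (limma adjusted p = 0.000512, 6e-05 and 0.0025), although the first of these was lost in a fit to its own groups alone (limma adjusted p = 0.0671). In shRac1+OGD Fstl1 was lower than in shLuci (-0.60 ± 0.15, limma adjusted p = 0.0191), and this call was lost on the TPM scale (limma adjusted p = 0.155) and without shLuci replicate 2 or 3 or any shRac1+OGD library (limma adjusted p = 0.0615 to 0.0699).

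Fst, the classical activin antagonist follistatin, moved the other way. It read 28.4, 29.3 and 25.6 FPKM in shLuci+OGD, above every other library, and its other libraries lay between 12.3 and 23.8 FPKM. Fst rose in shLuci+OGD against BMSC (0.77 ± 0.18, limma adjusted p = 0.00634), the only pair that passed the test, and median-of-ratios scaling or a fit to those groups alone ended the call (limma adjusted p = 0.062 and 0.135). Without BMSC replicate 2, which had the highest Fst of its group, shLuci+OGD was also above shLuci (0.31, limma adjusted p = 0.00603) and shRac1 (0.52, limma adjusted p = 0.000225). The ratio of Inhba to Fst FPKM within a library was 0.389 to 0.715 in shLuci+OGD and 0.975 to 3.30 in the other libraries. The ratio of Fst to Fstl3 FPKM was 0.838 to 1.35 in BMSC and shLuci, 5.62 to 6.85 in shRac1, 10.1 to 14.3 in shLuci+OGD and 2.25 to 2.90 in shRac1+OGD. Both ratios compare levels per length and were not tested.

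Smad7 stood highest in shLuci. It read 25.3, 27.0 and 25.4 FPKM there, 20.1, 15.02 and 19.8 FPKM in BMSC, 19.6, 18.3 and 17.4 FPKM in shRac1, 14.7, 15.1 and 16.2 FPKM in shLuci+OGD and 16.8, 18.1 and 19.3 FPKM in shRac1+OGD. The shLuci libraries were above all others, and the remaining groups lay close together. With all libraries the 4 pairs that differed were those with shLuci, and among them the fall in shLuci+OGD was -0.74 ± 0.11 (limma adjusted p = 0.000216). The calls against BMSC, shRac1 and shRac1+OGD were lost on the TPM scale (limma adjusted p = 0.0541, 0.0953 and 0.123). In the fit without BMSC replicate 2, shLuci+OGD was also below BMSC (-0.37), shRac1 (-0.26) and shRac1+OGD, the last of which was higher by 0.23 (limma adjusted p = 0.001, 0.00779 and 0.0254).

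Set together, OGD against undeprived libraries is the comparison that does not depend on which undeprived group is which. Of the 10 genes 5 were lower and 0 higher, where 8.01% of the 11515 genes tested were lower and 26.7% changed in either direction. The lower genes were Tgfb2 (-1.08 ± 0.04), Tgfb3 (-0.96 ± 0.04), Fstl1 (-0.67 ± 0.09), Fstl3 (-1.14 ± 0.13) and Smad7 (-0.30 ± 0.07), with limma adjusted p = 3.88e-09, 1.61e-08, 0.000209, 3.4e-05 and 0.00603. Of these, Tgfb3 alone had OGD and undeprived libraries that did not overlap, and the share of all genes without overlap was not counted. The Smad7 call was lost on the TPM scale (limma adjusted p = 0.1). On that scale 2 of the 10 genes were higher and 4 lower (23.2% of all genes changed, 1907 higher and 765 lower). Median-of-ratios scaling gave 0 higher and 6 lower (23.3% changed, 1256 higher and 1428 lower). Library weights gave 3 higher and 6 lower (63.2% changed, 5026 higher and 2249 lower). The median change of the 10 genes was -0.36, beside 0.10 over all genes tested. The latter is a shift of the whole table that median-of-ratios scaling removed (0.00), and it was 0.11, 0.20 and 0.15 for shLuci, shLuci+OGD and shRac1+OGD against BMSC. Without BMSC replicate 2 the 5 changes were -1.09, -0.97, -0.75, -1.04 and -0.34 in the same order, the lower genes included Inhba (-0.50, limma adjusted p = 0.00951), and Tgfb1 and Fst were higher (0.18 and 0.41, limma adjusted p = 0.007 and 3.2e-05). In that fit 49.2% of all genes changed, 3963 higher and 1700 lower.

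Taken group by group, shLuci+OGD had 6 of the 10 genes lower than shLuci (22.3% of all genes changed, 9.18% lower), 3 lower and 1 higher than shRac1 (15.7% of all genes changed, 5.01% lower and 10.7% higher) and 5 lower and 2 higher than BMSC (31.0% changed, 8.20% lower and 22.8% higher). Tgfb2, Tgfb3 and Fstl1 were lower in all 3. For shRac1+OGD the counts were 5 lower than shLuci (10.8% of all genes changed, 4.89% lower), 3 lower than BMSC (13.5% changed, 3.53% lower) and 2 higher than shRac1 (11.9% changed, 7.76% higher). With all 15 libraries no gene was lower there against all 3 undeprived groups, whereas without BMSC replicate 2 Fstl1 was (-0.55 against BMSC, -0.60 against shLuci and -0.21 against shRac1, limma adjusted p = 1.22e-05, 7.82e-07 and 0.00534). Without BMSC replicate 2 the changes from BMSC to shLuci+OGD were -1.98 for Tgfb2, -1.79 for Tgfb3, -1.15 for Fstl1, -2.06 for Fstl3, -1.33 for Inhba and 1.04 for Fst, and those to shRac1+OGD were -0.65 for Tgfb2, -0.62 for Tgfb3, -0.55 for Fstl1, -0.42 for Fstl3 and 0.61 for Fst, all called with limma. Smad7 (-0.37) and Tgfb1 (0.39) were also called between BMSC and shLuci+OGD in that fit. Of all genes 50.1% changed there in shLuci+OGD against BMSC, 4091 higher and 1678 lower. In shRac1+OGD against BMSC 26.3% changed, 2140 higher and 888 lower. These comparisons share libraries and are not independent of each other.

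**Figure D3:**
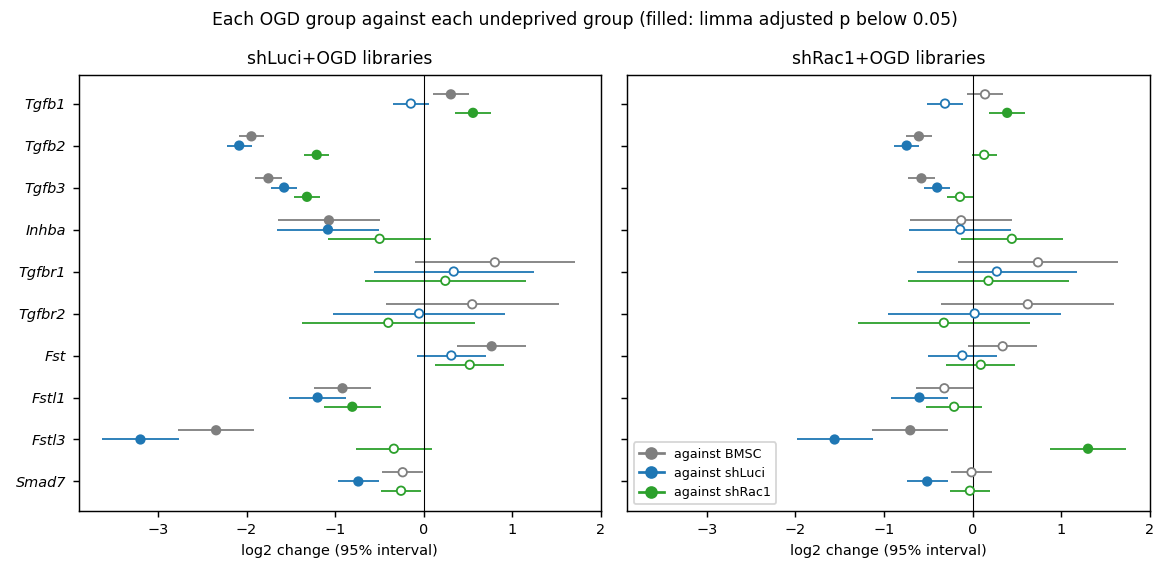
Change of each gene (log2, with 95% interval) in shLuci+OGD (left) and shRac1+OGD (right) against each undeprived group, with filled points where the limma adjusted p was below 0.05. Tgfb2, Tgfb3 and Fstl1 are filled and negative against all 3 groups on the left, and on the right Fstl3 is negative against BMSC and shLuci and positive against shRac1.

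Between the hairpins without OGD, the libraries labelled shRac1 had 5 of the 10 genes lower and 0 higher than shLuci, against 16.7% of all genes changed and 9.82% lower. Fstl3 differed most (-2.86 ± 0.20, limma adjusted p = 6.69e-07), then Tgfb2 (-0.87 ± 0.07, limma adjusted p = 1.24e-06) and Tgfb1 (-0.70 ± 0.09, limma adjusted p = 0.000167). Smad7 (-0.48 ± 0.11, limma adjusted p = 0.00678) and Tgfb3 (-0.26 ± 0.07, limma adjusted p = 0.0218) differed less. The Tgfb3 call was lost under both rescalings (limma adjusted p = 0.193 and 0.0565) and without shLuci replicate 1 or 2 or shRac1 replicate 2 or 3 (limma adjusted p = 0.0759 to 0.0876). Inhba (-0.58) and Fstl1 (-0.39) were lower as well without BMSC replicate 2 (limma adjusted p = 0.0431 and 2.69e-05). In that fit 37.3% of all genes changed, 1952 higher and 2344 lower.

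After OGD the libraries labelled shRac1+OGD had 4 of the 10 genes higher and 0 lower than shLuci+OGD, where 7.43% of all genes changed and 3.85% were higher. These were Fstl3 (1.64 ± 0.20, limma adjusted p = 0.000196), Tgfb2 (1.34 ± 0.07, limma adjusted p = 1.47e-07), Tgfb3 (1.18 ± 0.07, limma adjusted p = 5.34e-07) and Fstl1 (0.60 ± 0.15, limma adjusted p = 0.0253). For each of the 4, the libraries of these groups did not overlap. The same held for Tgfb1, Inhba, Fst and Smad7, which were not called, so it does not set the 4 apart. The share of all genes without overlap was not counted. Leaving out BMSC replicate 2 gave 6 genes higher and 1 lower, where 21.5% of all genes changed in that fit (1048 higher and 1425 lower). The additions were Inhba (0.94), Smad7 (0.23) and Fst (-0.43), with limma adjusted p = 0.00557, 0.0254 and 0.00163. The Fstl1 call was lost without any 1 of the 6 compared libraries (limma adjusted p = 0.0628 to 0.0897) and on the TPM scale (limma adjusted p = 0.132).

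Against uninfected cells, shLuci had 3 genes higher and 0 lower (14.3% of all genes changed, 9.99% higher): Tgfb1 (0.45 ± 0.09, limma adjusted p = 0.00568), Fstl3 (0.85 ± 0.20, limma adjusted p = 0.0118) and Smad7 (0.50 ± 0.11, limma adjusted p = 0.00672). Without BMSC replicate 2 these were 0.53, 1.14 and 0.37, all still called. Fst was then higher too (0.73, limma adjusted p = 5.16e-05) and Tgfb3 was lower (-0.22, limma adjusted p = 0.0137), so that 4 genes were higher and 1 lower. In that fit 32% of all genes changed, 2338 higher and 1348 lower. A fit to the 6 BMSC and shLuci libraries alone called none of the 10 genes with limma, and 1.57% of all genes. Of the 10 genes, 3 had an unadjusted limma p below 0.05 there. Median-of-ratios scaling ended the Tgfb1 and Fstl3 calls (limma adjusted p = 0.0896 and 0.0502). The libraries labelled shRac1 had 3 genes lower than BMSC (10.7% of all genes changed, 4.31% lower), namely Tgfb2 (-0.74), Tgfb3 (-0.44) and Fstl3 (-2.01), with limma adjusted p = 1.52e-05, 0.00138 and 3.56e-05. Without BMSC replicate 2 these were -0.78, -0.47 and -1.72, Inhba (-0.83) and Fstl1 (-0.34) were lower as well and Fst was higher (0.52), with limma adjusted p = 0.0228, 0.000515 and 0.000966. In that fit 21.1% of all genes changed, 1438 higher and 992 lower. The Tgfb3 call was lost on the TPM scale and in a fit to those groups alone (limma adjusted p = 0.0807 and 0.212).

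Whether the change after OGD differed between the hairpins was tested as an interaction, the change from shRac1 to shRac1+OGD minus that from shLuci to shLuci+OGD. With the pairs of the sample titles 7 of the 10 genes had a positive interaction, where 16.7% of all genes had one in either direction and 8.88% a positive one. It was 4.50 ± 0.28 for Fstl3, 2.21 ± 0.09 for Tgfb2 and 1.43 ± 0.10 for Tgfb3 (limma adjusted p = 2.24e-07, 6.99e-09 and 4.66e-07). With the pairs that the authors' lists use, chosen here after seeing the data, the same double difference was 0.60 ± 0.09 for Tgfb2 and 0.74 ± 0.10 for Tgfb3 (limma adjusted p = 0.0125 and 0.00588), and these 2 were the genes called, where 0.330% of all genes were. For Fstl3 it was -0.37 ± 0.28 (limma adjusted p = 0.685) and for Tgfb1 -0.42 ± 0.13 against 0.54 ± 0.13 with the title pairs (limma adjusted p = 0.291 and 0.0128), so both changed sign. The fold of Tgfb2 and Tgfb3 after OGD thus differed between the OGD groups under both pairings, by unlike amounts, and that of Fstl3 under the title pairs alone.

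**Figure D4:**
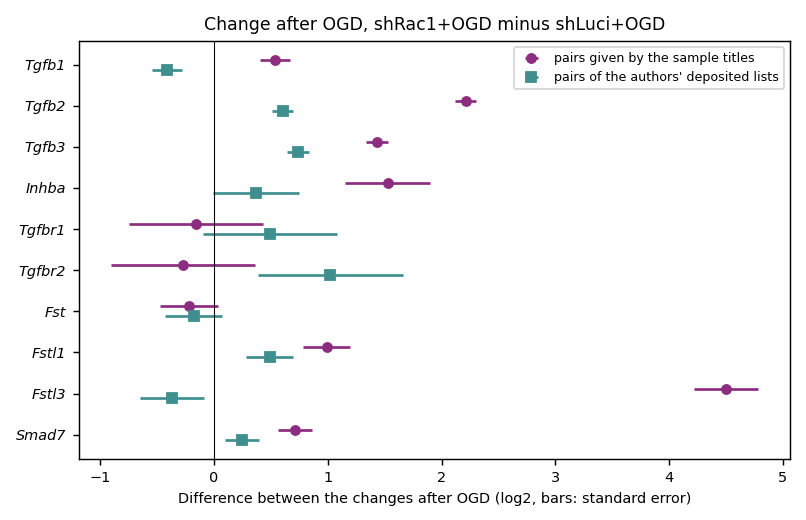
Difference between the changes after OGD, shRac1+OGD minus shLuci+OGD (log2, bars are the standard error), with the undeprived partner taken from the sample titles (circles) or from the authors' deposited lists (squares). Tgfb2 and Tgfb3 are positive under both, whereas Fstl3 is 4.50 under one and -0.37 under the other.

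Lists of changed genes from the authors cover 6 of the 10 pairs of groups, and 6 of the 10 genes are in at least 1 list. The lists hold 178 to 615 genes per pair and direction, and the share of all genes in any list was not counted. Inhba is listed with the authors' q = 0.0948 for shRac1+OGD against shLuci+OGD. Fstl3 is listed with q = 0.293 for shLuci against BMSC and q = 0.1 for BMSC against shRac1. The lists thus include genes with a q above the threshold for a call used here. In the authors' deposited table for shRac1+OGD against shLuci+OGD, Tgfb2, Tgfb3, Fstl1, Fstl3 and Inhba are listed as higher, with folds of 2.51, 2.26, 1.51, 2.80 and 1.89. In the authors' deposited table for shLuci+OGD against shRac1, Tgfb2, Tgfb3 and Fstl1 are listed as lower, with folds of 0.436, 0.402 and 0.572. In the authors' deposited table for shRac1+OGD against BMSC, Tgfb2 is the one of the 10 genes listed, with a fold of 0.658. For shLuci against shRac1 the authors list Fstl3, Tgfb2 and Tgfb1 as higher, with folds of 6.50, 1.83 and 1.62. For BMSC against shRac1 they list Fstl3 and Tgfb2 as higher, with folds of 3.65 and 1.66. Tgfb3 is in neither of these lists and Smad7 is in none, although limma called both between shRac1 and shLuci here.

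Other genes of the pathway were followed in 7 lists of 108 genes, of which 82 were tested. In OGD against undeprived libraries 15 were higher and 13 lower, which is 34.1% of those tested beside 26.7% of all genes (18.7% higher, 8.01% lower). Among other ligands of the superfamily, 3 of 8 tested were lower and 0 higher. Bmp4, a bone morphogenetic protein, fell most (-1.36 ± 0.04, limma adjusted p = 8.12e-10), from group means of 10.5, 21.2 and 10.0 FPKM in BMSC, shLuci and shRac1 to 3.60 and 6.31 FPKM in shLuci+OGD and shRac1+OGD. Bmp3 (-0.90) and Inhbb, the inhibin beta B chain (-0.38), were also lower (limma adjusted p = 0.000546 and 0.00928). Bmp3 means were 0.982 FPKM in shRac1 and 1.56 FPKM in shRac1+OGD, so it was not lower in that pair. Inhbb means were 0.473, 1.40 and 0.418 FPKM in BMSC, shLuci and shRac1, then 0.518 and 0.315 FPKM in shLuci+OGD and shRac1+OGD. Inhbb passed the filter on low values through shLuci alone, and its call rested on that group. Among other receptors 3 of 7 tested were higher and 0 lower, namely the co-receptor Tgfbr3 (0.70), the activin type I receptor Acvr1b (0.57) and the BMP receptor Bmpr1b (0.44), with limma adjusted p = 0.000516, 0.000227 and 0.0402. Tgfbr3 means were 1.13, 1.40 and 3.00 FPKM in BMSC, shLuci and shRac1, 4.88 FPKM in shLuci+OGD and 1.84 FPKM in shRac1+OGD. Tgfbr3 was thus lower in shRac1+OGD than in shRac1. Bmpr1b means were low, from 0.486 FPKM in shLuci to 1.38 FPKM in shLuci+OGD. Its shRac1+OGD mean (1.06 FPKM) was close to that of shRac1 (0.993 FPKM). None of the 6 SMAD transducers tested passed the limma test.

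Of 15 genes of ligand latency and activation, 4 were higher and 1 lower. Furin, the protease that cleaves the pro-peptide of TGF-beta, was higher by 0.43 ± 0.06 (limma adjusted p = 0.000275), and the plasminogen activator Plau by 0.70, the latent TGF-beta binding protein Ltbp3 by 0.30 and the latent TGF-beta anchor Lrrc32 by 0.25. Plau means were 3.47 FPKM in shRac1 and 3.23 FPKM in shRac1+OGD. Ltbp3 means were 33.5 FPKM in BMSC, 30.7 FPKM in shRac1 and 30.9 FPKM in shRac1+OGD. Lrrc32 was highest in shRac1, at 2.23 FPKM against 1.59 and 1.31 FPKM in shLuci+OGD and shRac1+OGD. These 3 thus did not rise in every pair. Of 9 extracellular antagonists 2 were higher and 1 lower. Grem1, the BMP antagonist gremlin, rose by 1.08 ± 0.10 (limma adjusted p = 6.66e-06), from group means of 35.3, 38.0 and 50.1 FPKM in the undeprived groups to 91.0 and 81.0 FPKM. The BMP antagonist chordin, Chrd, fell by 0.60 and Twsg1 was higher by 0.27 (limma adjusted p = 1.4e-05 and 0.0371). Bmp4 was lower, and Furin and Grem1 higher, in each OGD group against each of the 3 undeprived groups. Of 13 intracellular brakes the corepressor Tgif2 (0.26) and the ubiquitin ligase Nedd4l (0.23) were higher and 0 lower. Tgif2 was nevertheless highest in shLuci, at 5.91 FPKM against 3.59 and 4.77 FPKM in shLuci+OGD and shRac1+OGD.

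Of 24 transcriptional targets tested 4 were higher and 8 lower, so the list did not move one way. Tgfbi, a matrix protein named for its induction by TGF-beta, rose by 1.50 ± 0.05 (limma adjusted p = 5.96e-10), and its group means were 10.3, 9.24 and 18.6 FPKM without OGD, 60.8 FPKM in shLuci+OGD and 20.3 FPKM in shRac1+OGD. Its highest group was that with the lowest Tgfb2 and Tgfb3. Acta2, smooth muscle actin, fell by 0.89 ± 0.08 (limma adjusted p = 8.82e-06), and the cell cycle inhibitor Cdkn2b (0.84) and the early response factor Klf10 (0.71) were higher (limma adjusted p = 0.00178 and 1.1e-06). Cdkn2b means were 5.29, 7.18 and 2.71 FPKM in BMSC, shLuci and shRac1, with an SD of 1.32 FPKM in shRac1. They were 7.62 FPKM in shLuci+OGD, close to shLuci, and 9.78 FPKM in shRac1+OGD. Klf10 had group means of 3.97, 13.0 and 5.41 FPKM in BMSC, shLuci and shRac1, 12.8 FPKM in shLuci+OGD and 9.61 FPKM in shRac1+OGD, so shLuci stood above both OGD groups. In the interaction with the title pairs the largest changes over the 7 lists were those of Itgb3 (2.74), Tgfbi (-2.53) and Bmp3 (2.49), with limma adjusted p = 0.0162, 6.46e-09 and 0.000109. In the libraries labelled shRac1 against shLuci the protease Mmp2 (-1.43) and Cdkn2b (-1.36) were among the largest changes, with limma adjusted p = 5.15e-08 and 0.00188.

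Over the 82 genes the counts in the other comparisons ran in both directions. They were 14 higher and 5 lower for shLuci against BMSC, 11 and 18 for shRac1 against shLuci, 13 and 15 for shLuci+OGD against shLuci, 14 and 11 for shRac1+OGD against shRac1, 12 and 7 for shRac1+OGD against shLuci+OGD, and 21 and 12 for the interaction. In the same order, 23.2%, 35.4%, 34.1%, 30.5%, 23.2% and 40.2% of the 82 were called in either direction, beside 14.3%, 16.7%, 22.3%, 11.9%, 7.43% and 16.7% of all genes. Among the largest changes from BMSC to shLuci were those of Klf10 (1.60) and the osteogenic ligand Bmp2 (1.05), with limma adjusted p = 2.64e-07 and 0.000325. From shLuci to shLuci+OGD they were those of Tgfbi (2.65), Bmp4 (-2.40) and Bmp3 (-2.01), with limma adjusted p = 1.42e-10, 1.68e-10 and 2.69e-05. From shRac1 to shRac1+OGD they were those of the differentiation inhibitor Id2 (-1.79), Cdkn2b (1.78) and Bmp2 (-1.75), with limma adjusted p = 2.43e-05, 0.000361 and 4.8e-06. Between the OGD groups, shRac1+OGD against shLuci+OGD, they were those of Tgfbi (-1.56), Bmp3 (1.44) and Bmp2 (-1.29), with limma adjusted p = 1.47e-07, 0.00131 and 8.8e-05.

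Likeness of pattern was measured as Pearson's r over the 15 libraries on the log2 scale, among 8261 genes with a mean of at least 5 FPKM, as a description in which the libraries and their groups are shared by all genes. Nearest to Fstl3 were Rassf4 (r = 0.989), Aplp1 (0.984) and Aard (0.978), nearest to Tgfb2 were Dync1i1 (0.983), Shmt1 (0.979) and Plxdc2 (0.977), and nearest to Tgfb3 were Edn1 (0.978), Sdc1 (0.977) and Car9 (0.977). Edn1, which encodes the vasoconstrictor endothelin 1, had group means of 65.5, 32.5 and 26.0 FPKM in BMSC, shLuci and shRac1, 3.73 FPKM in shLuci+OGD and 25.7 FPKM in shRac1+OGD. Rassf4 had 16.5, 31.7, 3.53, 2.76 and 9.76 FPKM in the same order of groups. Among the 10 genes the highest r over 15 libraries was that of Tgfb2 with Tgfb3 (0.966), followed by Tgfbr1 with Tgfbr2 (0.917, which rested on BMSC replicate 2) and Tgfb2 with Fstl1 (0.911). Without that library Tgfb2 with Fstl1 was highest (0.974), ahead of Tgfb2 with Tgfb3 (0.965). Over all 15, Tgfb1 had r = -0.03 with Tgfb2 and -0.26 with Tgfb3, and Fst had the lowest value, r = -0.71 with Tgfb3.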

How the data were processed

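Libraries of 15 samples were made with standard Illumina protocols, per the labels' protocols. The submitters' processing notes name HISAT2, with no version, and StringTie 1.2.3. The authors' table gives FPKM for each library, per the file headers, with no counts, so the depth behind a value is unknown. No genome build is named in the sources used here. The authors' lists of changed genes hold a log2 fold change, a fold (ratio) and the p-value and q-value, per the file headers, with no word on the test.

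Groups follow the sample titles. The labels do not say that replicates were separate cultures or animals, so p-values measure only the spread between these samples, which may be technical. Kept were the 11515 of 12169 genes that reached 1 FPKM in 3 or more of the 15 libraries. limma 3.58.1 in R 4.3.3 was fitted once to log2(FPKM + 0.5), with 5 group means, 10 residual degrees of freedom and a mean-variance trend. Errors after changes are limma standard errors. Two-sided p-values were adjusted by the Benjamini-Hochberg method over all genes tested, and the threshold for a call was an adjusted p of 0.05. This scale understates changes of low genes.

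The 10 genes, the 7 pathway lists and the rule for named genes were chosen with earlier results of these data known. That rule names all 10, up to 4 called genes per list for OGD against undeprived libraries, up to 3 over all lists for each other main comparison, and the 3 genes most alike to each of the 3 with the widest ranges. A gene that the rule names is not reported here. Alternatives were pseudocounts of 1 and 0.1, no filter, a filter at a mean of 5 FPKM, median-of-ratios scaling, rescaling to one total (TPM scale), the compared groups only, no trend, library weights, a replicate block and leaving out each library in turn.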

Additional observations from a re-analysis of the deposited data

Results flagged for a closer look

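For 7 genes the change after OGD differed between the hairpins as titled, by the limma test of the interaction. The log2 difference was 0.54 for Tgfb1, 2.21 for Tgfb2, 1.43 for Tgfb3, 1.52 for Inhba, 0.99 for Fstl1, 4.50 for Fstl3 and 0.71 for Smad7, with limma adjusted p = 0.0128, 6.99e-09, 4.66e-07, 0.0135, 0.00501, 2.24e-07 and 0.00514. With the undeprived partners of the authors' deposited lists, the same difference was 0.37 for Inhba, 0.49 for Fstl1 and 0.24 for Smad7, none of which passed the test (limma adjusted p = 0.687, 0.519 and 0.685). The Smad7 difference also missed the threshold on the TPM scale (0.76, limma adjusted p = 0.0624). Of all genes 1922 were called with the title pairs and 38 with the other pairs.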

How the results depend on the processing

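Over the alternatives named with the methods, 2836 of 2990 single values kept their direction, where one had been called, and their side of the threshold. Another 56 lost a call, 98 gained one and 0 reversed. The cause was not tested. The number of the 10 genes called moved by over 1.5 times as follows. For shLuci against BMSC the reported count of 3 became 0 in a fit to the compared groups only and 6 with library weights, a fit that stopped before it converged. For shRac1 against shLuci 5 became 3 on the TPM scale, 8 with the compared groups only and 9 with library weights. For shRac1+OGD against shRac1 2 became 1 under median-of-ratios scaling, 6 with the compared groups only and 9 with weights. For shRac1+OGD against shLuci 5 became 2 on the TPM scale. With the compared groups only, shLuci+OGD against BMSC had 3 in place of 7, shLuci+OGD against shRac1 7 in place of 4, and shRac1+OGD against BMSC 0 in place of 3, with 3 at an unadjusted limma p below 0.05. Library weights gave 7 for shRac1+OGD against shLuci+OGD, 9 for OGD against undeprived, 8 for shRac1 against BMSC, 10 for shLuci+OGD against shRac1 and 7 for shRac1+OGD against BMSC. The share of all genes called moved with these counts, from 7.43% to 31.0% as reported to 29.6% to 71.6% with library weights and 0.643% to 37.9% with the compared groups only. With the pairs of the authors' lists the interaction had 2 in place of 7, and Tgfb1 (-0.42) and Fstl3 (-0.37) reversed. Leaving out 1 library gave 5 to 8 for OGD against undeprived, 3 to 5 for shLuci against BMSC, 4 to 7 for shRac1 against shLuci, 1 to 3 for shRac1+OGD against shRac1, 3 to 7 for shRac1+OGD against shLuci+OGD, 3 to 6 for shRac1 against BMSC, 4 to 8 for shLuci+OGD against shRac1, 2 to 5 for shRac1+OGD against BMSC and 7 to 7 for the interaction. Except for the interaction, the highest of each of these counts came without BMSC replicate 2, and its omission gave 23 further calls of 120 and ended 0. Replicate numbers do not pair the libraries: of 30 same-numbered pairs 11 had deviations with r above 0.1, and a library was closest to its own number in 19 of 60 cases. The replicate block left all 120 calls as they were, with 5 for OGD against undeprived and 7 for the interaction. For OGD against undeprived the compared groups are all 5, so that alternative gives no other value.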
